A study of Homo sapiens with 20 samples.

Results

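The locus described here was a 700.0 kb window of chromosome 7, from 116.2 to 116.9 Mb (hg38), that holds CAV2, CAV1 and MET together with TES and CAPZA2. Its members were all H3K27ac peaks and all super-enhancers (SEs) that the 16 deposited lists placed inside the window, merged across libraries where they overlapped by 1 bp or more. This gave 86 peak elements of 58860 in the genome (P1 to P86, numbered by position) and 8 SE regions of 1873 (S1 to S8). They came from 679 of 271550 peaks and 59 of 8295 SEs summed over the libraries. The window was selected on SE calls in the 4 oxaliplatin-treated KO libraries, in which S3, upstream of the CAV2 promoter, was called in both esiCT libraries and in neither esiHDAC4 library. That difference is therefore given as a description, with no test.

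All libraries were H3K27ac ChIP-seq from HCT-116, a human colorectal cancer cell line, either wild-type (WT) or deleted for FBXW7 (FBXW7-/-, here KO). Cells were transfected for 48 h with esiRNA, a pool of short interfering RNAs, directed against a control (esiCT) or HDAC4 (esiHDAC4), and were left untreated (UNT) or received 50 µM oxaliplatin (OXPT) for the last 24 h. The 8 groups of the 3 factors had 2 libraries each, A and B, so that each level of a factor had 8 libraries. Each genotype was 1 line, so that FBXW7 loss and any other difference between the lines cannot be told apart. The labels state that independent experiments were pooled and the study describes its libraries as biological replicates. No source used here says how the pools relate to A and B, and p-values measure only the spread between these libraries.

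H3K27ac, the acetylation of lysine 27 on histone H3, marks active promoters and enhancers, and SEs are long stretches in which many such enhancers lie close together. CAV1 and CAV2 encode caveolins, the membrane proteins that build caveolae, and MET encodes the receptor tyrosine kinase for hepatocyte growth factor, a driver of epithelial growth and motility. FBXW7 is the substrate-recognition subunit of a ubiquitin ligase. HDAC4 is a class IIa histone deacetylase that binds transcription factors such as MEF2, and oxaliplatin is a platinum drug that crosslinks DNA. The study profiled H3K27ac to find out how acetylated regions and SEs answered to OXPT when FBXW7 was missing and when HDAC4 was silenced.

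The sequences below are places within elements and promoters to which the results refer. Windows of 299 bp around the highest summit are shown for 3 elements: P41, upstream of CAV2, called in every WT and no KO library (chr7:116465337-116465635), P63, in MET intron 1 and called in every library (chr7:116691278-116691576), and P80, downstream of MET (chr7:116803338-116803636). All are read from hg38 on the + strand. Capitals mark a match to the MEF2 motif in P41, to the TEAD motif GGAATG in P63 and to the AP-1 motif TGANTCA in P80, searched on both strands.
P41: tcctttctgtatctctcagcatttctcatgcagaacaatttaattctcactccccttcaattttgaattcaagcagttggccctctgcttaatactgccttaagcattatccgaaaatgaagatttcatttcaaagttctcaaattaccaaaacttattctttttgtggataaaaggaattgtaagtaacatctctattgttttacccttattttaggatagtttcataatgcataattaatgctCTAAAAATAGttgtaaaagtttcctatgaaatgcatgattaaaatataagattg
P63: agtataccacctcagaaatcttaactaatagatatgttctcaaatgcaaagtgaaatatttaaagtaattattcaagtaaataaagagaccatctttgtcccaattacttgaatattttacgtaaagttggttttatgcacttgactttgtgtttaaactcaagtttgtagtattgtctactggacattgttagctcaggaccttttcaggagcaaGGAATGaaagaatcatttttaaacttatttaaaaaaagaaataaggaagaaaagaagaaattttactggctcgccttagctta
P80: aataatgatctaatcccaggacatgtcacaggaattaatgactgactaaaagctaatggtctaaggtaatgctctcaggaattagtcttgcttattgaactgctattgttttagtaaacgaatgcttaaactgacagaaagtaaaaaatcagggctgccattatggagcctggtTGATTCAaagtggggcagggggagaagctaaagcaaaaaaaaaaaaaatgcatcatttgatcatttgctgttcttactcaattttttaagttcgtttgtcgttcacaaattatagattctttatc

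RefSeq promoters (GRCh38.p14, + strand), from 250 bases before to 50 bases after the first start site, are shown for the 3 genes because a peak covered each of these starts: CAV2 at chr7:116499488-116499787, CAV1 at chr7:116524759-116525058 and MET at chr7:116671946-116672245. Capitals mark the SP/KLF motif GGGCGG on either strand.
CAV2 promoter: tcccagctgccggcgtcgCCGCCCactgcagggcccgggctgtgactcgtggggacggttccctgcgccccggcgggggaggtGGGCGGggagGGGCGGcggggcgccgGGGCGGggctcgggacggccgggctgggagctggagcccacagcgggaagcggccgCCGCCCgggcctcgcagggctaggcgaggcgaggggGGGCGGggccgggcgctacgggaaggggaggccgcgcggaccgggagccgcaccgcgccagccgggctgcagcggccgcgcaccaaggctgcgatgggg
CAV1 promoter: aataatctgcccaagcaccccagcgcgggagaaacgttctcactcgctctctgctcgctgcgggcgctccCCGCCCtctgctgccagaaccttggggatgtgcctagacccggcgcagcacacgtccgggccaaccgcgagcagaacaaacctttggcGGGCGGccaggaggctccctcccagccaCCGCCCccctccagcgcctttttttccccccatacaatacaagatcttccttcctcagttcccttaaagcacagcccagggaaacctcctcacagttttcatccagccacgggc
MET promoter: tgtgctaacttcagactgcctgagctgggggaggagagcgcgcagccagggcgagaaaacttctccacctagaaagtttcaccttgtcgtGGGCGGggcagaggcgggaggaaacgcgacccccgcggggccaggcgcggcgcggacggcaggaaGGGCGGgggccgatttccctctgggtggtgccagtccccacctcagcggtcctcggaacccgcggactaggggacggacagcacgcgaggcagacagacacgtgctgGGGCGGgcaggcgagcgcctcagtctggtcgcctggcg
The CAV2 promoter held 6 matches in 82.7% GC, the CAV1 promoter 3 in 62.3% GC and the MET promoter 3 in 69.3% GC, and 45.0% of 35116 RefSeq promoters held at least 1. None of the 3 windows held the AP-1, TEAD, MEF2, FOXO (TGTTTAC) or CRE (TGACGTCA) motif, which occurred in 7.71%, 14%, 1.86%, 3.42% and 1.85% of promoters. Among windows around the highest summits, 1 base longer on each side than those printed, of the 26 named elements, TEAD matched in 3, SP/KLF in 3, AP-1 in 1, FOXO in 1 and CRE in 0. The shares over the 58860 windows of the genome were 14.9%, 18.9%, 7.83%, 3.49% and 0.192%. MEF2 matched in 2 of the 26 windows, P41 among them, and in 2.56% of all windows. The AP-1 and CRE motifs read the same on both strands, so a place counted once.

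The lists differed widely in length, which bears on every count at the locus. WT lists held 10562 to 27927 peaks (median 22290) and KO lists 1752 to 21875 (median 10427.5). The shortest, KO esiHDAC4 UNT B, stood apart with 1752 peaks and 66 SEs, so the permutation tests between genotypes, and the counts of calls by genotype, were repeated without it, for the latter by a choice made after seeing the data. The labelled cell type was checked at start sites: KRT18 had a peak in 16 libraries, EPCAM and KRT8 in 15, CDX2, an intestinal transcription factor, in 10 and CDH1 in 8, whereas VIL1 had a peak in 1 and LGALS4 and CEACAM5 in none. Of 8 markers of other cell types (blood, stroma, endothelium, muscle and liver), 7 had no peak in any library, and the exception was COL1A1.

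Peaks of the window formed a few broad, recurrent elements among many sporadic ones. The share called in 8 or more libraries was near that of all regions. Of the 86 peak elements, 35 (40.7%, against 51.9% of all regions) were called in 1 library and 14 in 2. In 3 or more libraries 37 were called (43.0%, against 37.6%), of which 17 were called in 8 or more (19.8% of the 86, against 18.3%). Those called once were 249 to 706 bp long, and those called in 8 or more were 1080 to 12702 bp long. Of all 86, 56 were called in WT libraries alone and 3 in KO libraries alone (65.1% and 3.49%, against 45.0% and 19.4% of all regions). Both counts were the same without KO esiHDAC4 UNT B, where the shares of all regions were 45.2% and 19.1%. P31, P39, P63 and P78 were called in all 16 libraries, that is 4 of 86 elements where 0.802% of all regions were. P31 and P39 lay in S3 upstream of CAV2, P63 in MET intron 1 and P78 over MET exons 12 to 17. The RefSeq start elements of the 3 genes were not among these 4, as the CAV1 (P46) and MET (P59) start elements were called in 15 libraries and the CAV2 element (P44) in 14. P78 did include a GENCODE start of a short MET transcript.

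**Figure D1:**
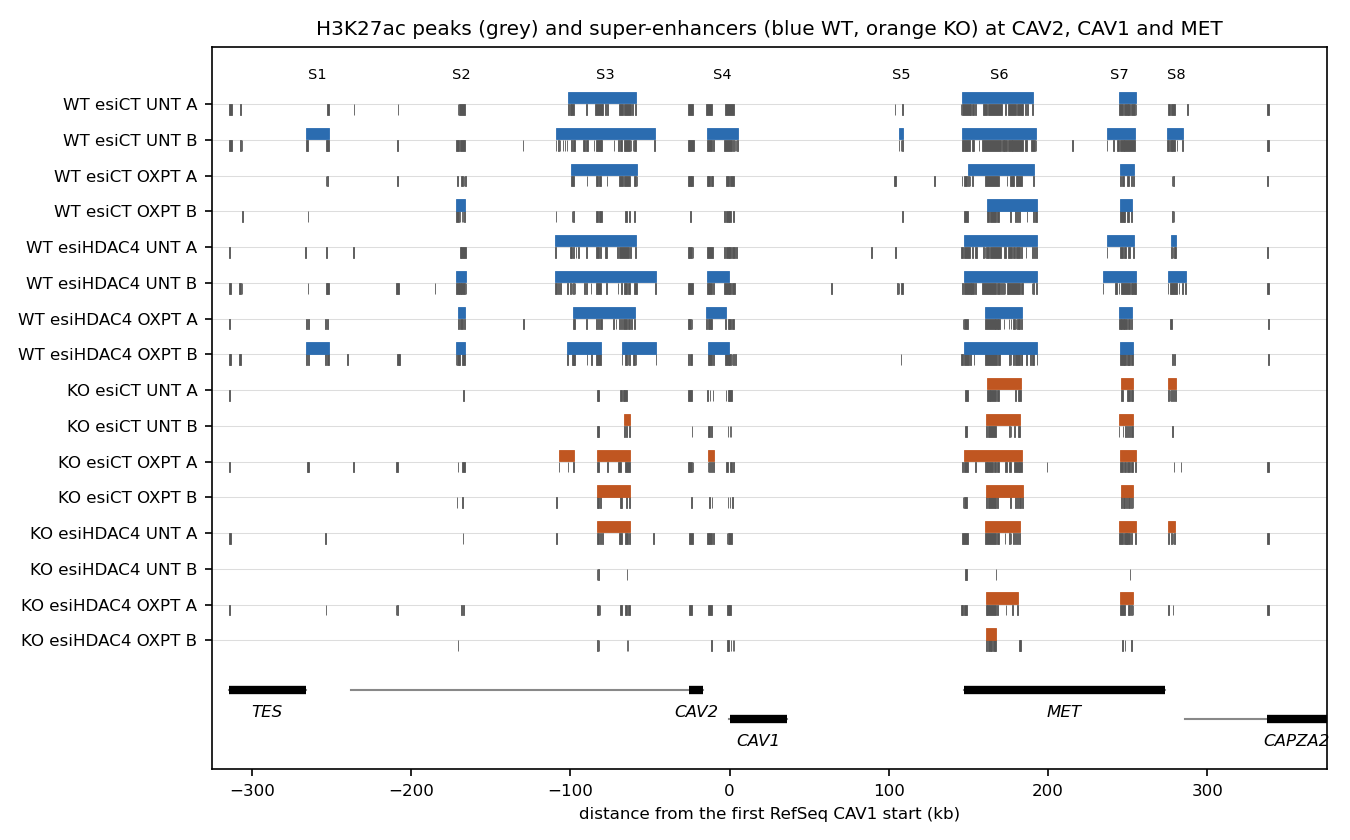
Map of the window, with distance from the first RefSeq CAV1 start in kb on the x axis and 1 row per library. Grey bars below each line are peaks and coloured bars above it are SEs (blue WT, orange KO); the thick part of a gene bar runs from its first RefSeq start and the thin part is the rest of the GENCODE gene. SEs gather over S3, upstream of CAV2, and over S6 and S7 in MET, and KO esiHDAC4 UNT B has none.

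The CAV2 side of the window was dominated by S3 (chr7:116415226-116478929), a region of 63.7 kb made of 27 peak elements. It ended 20.8 kb upstream of the first RefSeq CAV2 start at 116499738, although GENCODE places it within a longer CAV2 transcript model that starts at 116287380. SEs were called here in 11 libraries, 7 WT and 4 KO, where 11.1% of all SE regions were called in as many or more. The called length was 42.7 and 62.1 kb in WT esiCT UNT (A and B), 41.3 and 0 kb in WT esiCT OXPT, 50.8 and 63.6 kb in WT esiHDAC4 UNT and 39 and 42.9 kb in WT esiHDAC4 OXPT. In KO it was 0 and 3.84 kb in esiCT UNT, 30.8 and 21.0 kb in esiCT OXPT, 20.9 and 0 kb in esiHDAC4 UNT, and 0 and 0 kb in esiHDAC4 OXPT. Thus the 7 WT libraries with a call spanned 39 kb or more, and the 8 KO libraries 30.8 kb or less, with WT esiCT OXPT B at 0 among the latter. The difference in presence alone between KO and WT did not pass the test at S3 (two-sided exact permutation test within letters, p = 0.296). The KO libraries here include the 4 with OXPT on whose S3 calls the window was selected, so neither this test nor the KO lengths are free of that selection.

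Inside S3, P31 (chr7:116440585-116445384, 54.4 kb upstream of the CAV2 start) and P39 (chr7:116455209-116463178) were the constant elements and P24, P28 and P41 the variable ones. Summit fold, the enrichment of the highest summit over the local background of the same library, was 8.61 and 6.54 at P31 in WT esiCT UNT, 5.35 and 6.14 with OXPT, 6.85 and 7.97 in WT esiHDAC4 UNT, and 4.27 and 5.96 with OXPT. KO libraries ranged from 4.10 to 6.07 (median 4.98, against 6.34 in WT), and the genotypes overlapped. P39 overlapped more fully, with a median of 5.55 in WT and 5.25 in KO. The highest summits of P31 fell within 2.08 kb of each other and those of P39 within 5.58 kb, so that a single fold at P39 can come from different places in a broad element.

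P41 (chr7:116464061-116467030), 32.7 kb upstream of CAV2, had a call in every one of the 8 WT libraries and in 0 of the 8 KO libraries. Its WT folds were 3.76 and 4.89 in esiCT UNT, 3.44 and 4.22 in esiCT OXPT, 3.69 and 5.27 in esiHDAC4 UNT, and 4.51 and 4.30 in esiHDAC4 OXPT. These rested on 13 to 27 fragments at the summit, and the summits lay within 0.811 kb of each other. The −log10 q-values of these peaks ran from 3.40 to 9.62, under the stricter threshold of 10 used in the closing section. The lowest of these folds was above what a call at the locus required in 6 of the 8 KO lists, and their median in all 8. That requirement was taken at the median background of each list's own peaks at the locus. What fold P41 had in KO is not known, and the part of the threshold in its missing calls was not tested. P24 (chr7:116424799-116428211) was likewise called in 8 WT libraries, at 3.78 to 5.40, and in 1 KO library, esiCT OXPT A, at 4.0. For P28 (chr7:116434798-116436037) the counts were 7 and 0.

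The CAV2 and CAV1 start sites carried strong peaks that were seldom part of an SE. P46 (chr7:116521677-116528324), over CAV1 exons 1 and 2, gave the highest fold of the window, 11.48 in WT esiCT UNT A, where 46 fragments covered the summit (95% exact Poisson interval 33.7 to 61.4, counting error only). Its fold was 7.64 in WT esiCT UNT B, 6.46 and 5.23 in WT esiCT OXPT, 7.26 and 6.98 in WT esiHDAC4 UNT and 6.66 and 6.72 in WT esiHDAC4 OXPT. In KO it was 7.16 and 6.20 in esiCT UNT, 8.52 and 5.71 in esiCT OXPT, 6.87 in esiHDAC4 UNT A, and 6.79 and 6.23 in esiHDAC4 OXPT. The medians, 6.85 in WT and 6.79 in KO, differed by less than the spread between libraries (exact permutation p = 0.486), and no call was made in KO esiHDAC4 UNT B. P44 (chr7:116498798-116502436), over CAV2 exons 1 and 2, had medians of 5.43 and 4.92 (exact p = 0.447). P45, 9.5 kb upstream of CAV1, was called in 7 WT and 7 KO libraries.

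SEs at CAV1 (S4, chr7:116510555-116530145) were called in 4 WT libraries at 12.2 to 19.3 kb and in KO esiCT OXPT A at 3.63 kb. An SE reached into P46 in the 4 WT libraries and not in the KO library. The CAV1 start itself lay inside an SE in 1 library, WT esiCT UNT B, and the other 4 SEs ended upstream of it. No SE reached P44 in any library. Farther upstream, S2 (chr7:116353163-116359776), which lies over P14 in the long CAV2 model, was called in 4 WT libraries at 4.48 to 6.43 kb and in no KO library. The remaining regions on this side were S1, downstream of TES, with calls in 2 WT libraries, and S5, in the COMETT lncRNA upstream of MET, with a call in 1.

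**Figure D2:**
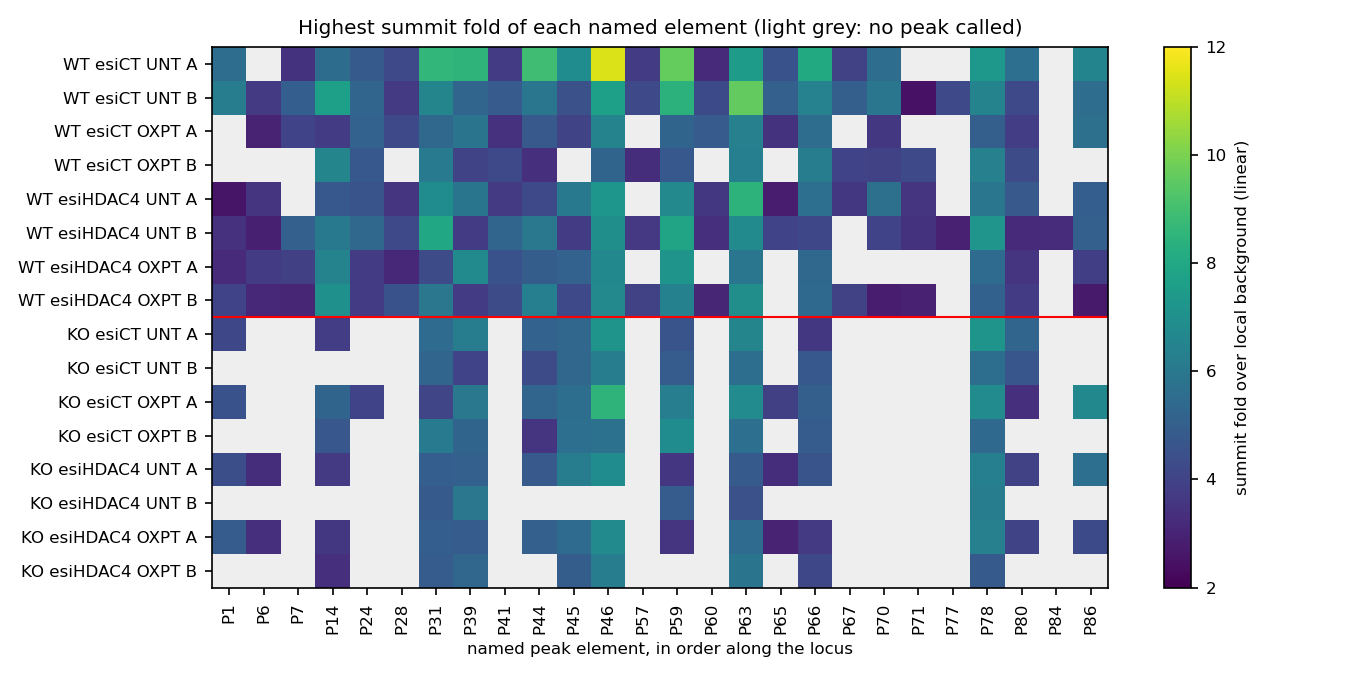
Summit fold of the 26 named peak elements (columns, by position) in each library (rows; the line divides WT above from KO below), on a scale of 2 to 12, with light grey cells where no peak was called. P31, P39, P63 and P78 are filled in all 16 libraries, and P41 is grey throughout KO.

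MET held the most widely called SEs of the window. S6 (chr7:116670938-116718197, 47.3 kb, 13 peak elements), from the MET start into intron 2, was called in 15 libraries, 8 WT and 7 KO, and S7 (chr7:116759377-116780395), in the distal part of the gene, in 14, 8 WT and 6 KO. Of all SE regions 6.03% were called in 14 or more libraries. S6 spanned 44.8 and 46.8 kb in WT esiCT UNT, 41.2 and 31.4 kb in WT esiCT OXPT, 45.8 and 45.5 kb in WT esiHDAC4 UNT, and 23.5 and 46 kb in WT esiHDAC4 OXPT. KO lengths were 21.7 and 21.2 kb in esiCT UNT, 36.4 and 22.9 kb in esiCT OXPT, 21.6 and 0 kb in esiHDAC4 UNT, and 20.3 and 6.58 kb in esiHDAC4 OXPT. The SEs differed at both ends. At the 5′ end an SE reached P59, the MET start element, in 6 of 8 WT and 1 of 8 KO libraries (KO esiCT OXPT A), and in the other 6 KO libraries with a call it began in intron 1 near P63. The MET start itself lay inside an SE in 3 WT and 0 KO libraries. At the 3′ end the SE extended into P70 or beyond in 7 of 8 WT libraries, all but WT esiHDAC4 OXPT A, and in 0 of the 7 KO libraries with a call.

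P59 (chr7:116670288-116676486) covers MET exon 1 and the beginning of intron 1. Its fold was 9.63 and 8.43 in WT esiCT UNT, 5.22 and 4.77 in WT esiCT OXPT, 6.72 and 7.83 in WT esiHDAC4 UNT, and 7.17 and 6.40 in WT esiHDAC4 OXPT. In KO, P59 had 4.60 and 4.93 in esiCT UNT, 6.28 and 6.87 in esiCT OXPT, 3.58 and 4.90 in esiHDAC4 UNT, 3.54 in esiHDAC4 OXPT A and no call in B. The MET start was thus highest in untreated WT esiCT cells, and the genotypes overlapped, with medians of 6.95 in WT and 4.90 in KO.

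Within the gene, P63 (chr7:116683523-116696224, MET intron 1) was the longest element of the window at 12702 bp. Its WT folds ran from 5.93 to 9.59 (median 6.84) and its KO folds from 4.49 to 6.81 (median 5.64). P66 (chr7:116699832-116709533), over exon 2 and intron 2, had medians of 5.62 in WT and 4.61 in KO. P78 (chr7:116769444-116779563), which includes a GENCODE start of a short MET transcript and makes up much of S7, had medians of 6.12 in WT and 6.27 in KO (exact p = 0.920). P60, P67, P70 and P71, in introns 1 and 2, were called in 6, 5, 7 and 5 WT libraries and in 0 KO libraries. Their WT folds were low, from 2.49 to 5.92.

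**Figure D3:**
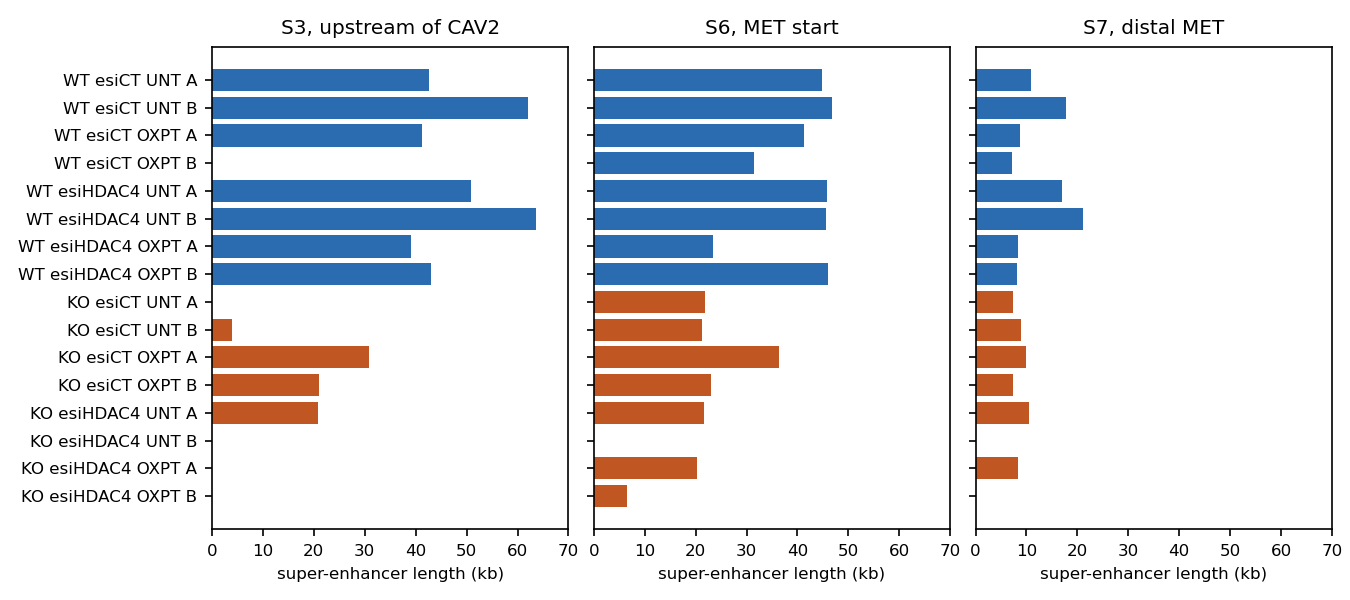
Called SE length in kb (bars) at S3, S6 and S7, 1 row per library, WT in blue and KO in orange. At S6 the WT libraries lie between 23.5 and 46.8 kb and the KO libraries between 0 and 36.4 kb; at S3 the KO libraries lie between 0 and 30.8 kb.

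The first comparison asked how the locus differed between FBXW7-/- and WT cells. Calls were fewer in KO by their medians: the number of elements called was 19 to 50 in WT (median 33.5) and 5 to 26 in KO (median 11.5), and the summed SE length 43.8 to 173.2 kb and 0 to 80.7 kb (medians 107.4 and 33.9). The ranges overlapped, since KO esiCT OXPT A had 26 elements against 25 in its WT counterpart and KO esiCT OXPT B an SE length of 51.3 kb against 43.8 kb. Per 1000 peaks of a list, the locus held 1.68 to 3.69 peaks in WT and 1.69 to 4.24 in KO. Per 1000 SEs it held 3.96 to 15.5 SEs in WT and 0 to 11.1 in KO. As a share of the lists, the locus was thus not lower in KO for peaks. Of the 37 elements called in 3 or more libraries, 31 were called in more WT than KO libraries (83.8%, against 84.5% of all such regions) and 0 in more KO than WT (6.56% of all), and 11 were called in WT alone (29.7%, against 14.1% of all such regions). Without KO esiHDAC4 UNT B these counts were 35, 0 and 11, against 87.0%, 6.22% and 14.1% of all such regions. Presence was tested for the 27 elements called in 3 to 13 libraries, by permuting genotype labels among the A and among the B libraries (exact test, two-sided). At an unadjusted p under 0.05, 9 were called less often in KO (33.3%), where 13.6% of the 20090 tested regions were. They were P41 (p = 4.08e-04, the smallest these permutations can give), P24, P28 and P70 (p = 0.00204), P7 and P60 (p = 0.0102), P57 and P71 (p = 0.0143) and P67 (p = 0.0306). All of the 9 but P24 had no KO call, and so entered the test through their WT calls alone. None passed Benjamini-Hochberg adjustment over all regions by this exact permutation test, the smallest adjusted p at the locus being 0.208. Without KO esiHDAC4 UNT B, 9 of 26 tested elements passed unadjusted. The share of all regions in that setting is not given here, so this count is not set against the genome.

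By function, 4 of these 9 elements lay in MET introns (P60, P67, P70, P71), 3 in S3 upstream of CAV2 (P24, P28, P41), 1 in the COMETT lncRNA 38.0 kb upstream of MET (P57) and 1 downstream of TES (P7). Start site elements were not among them. Counted within 1 kb of the annotated start, however, CAV2 had a peak in 8 WT and 4 KO libraries (exact permutation p = 0.0286). It was 1 of 3 tested starts of the locus to pass an unadjusted p under 0.05, where 14.4% of 9669 coding starts were called less often in KO. TES had a peak in 6 WT and 4 KO libraries (exact p = 0.571) and CAPZA2 in 7 and 3 (exact p = 0.0714). CAV1 and MET each had one in 15, which was too many to test.

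Summit fold was ranked within letters with uncalled libraries lowest, in the 37 elements called in 3 or more libraries. It was lower in KO in 14 (37.8%) at an unadjusted p under 0.05, where 21.0% of 22137 regions were. To the 9 above this added P14, in S2 (medians 6.26 in WT and 3.77 in KO, exact p = 0.00694), P31 (p = 0.0286), and 3 elements of MET: P59 (p = 0.0286), P63 (p = 0.0155) and P66 (p = 0.00735). After adjustment over all regions by the exact permutation test P41 remained (adjusted p = 0.0468), 1 of 37 where 0.872% of all regions passed. By presence, its adjusted p in the exact permutation test was 0.208. At P41 and the other elements with 0 KO calls, the ranks reflect missing calls, and no lower fold was measured in KO. P39, P44, P45, P46 and P78 did not pass (exact p = 0.920, 0.447, 0.294, 0.486 and 0.920). Leaving out KO esiHDAC4 UNT B gave 13 elements, without P31, and no adjusted p under 0.05. Here too the share of all regions is not given.

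List length moved with genotype, as given above, and so did the enrichment that a call required: at the local background of the locus it was 2.55 to 3.13 in WT and 2.72 to 3.75 in KO lists. Their part in the fewer KO calls was not tested. With every list shortened to its 1752 strongest peaks, 1 of 7 tested elements was called less often in KO, where 2.49% of 2487 regions were, and 2 of 10, P63 and P66, were lower by fold, where 5.13% of 2690 were. The 4 libraries on which the window was selected are also among the 8 KO libraries. Untreated libraries alone avoid them but cannot reach the threshold, since the smallest exact p that 8 libraries in 2 letters allow is 0.0556.

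**Figure D4:**
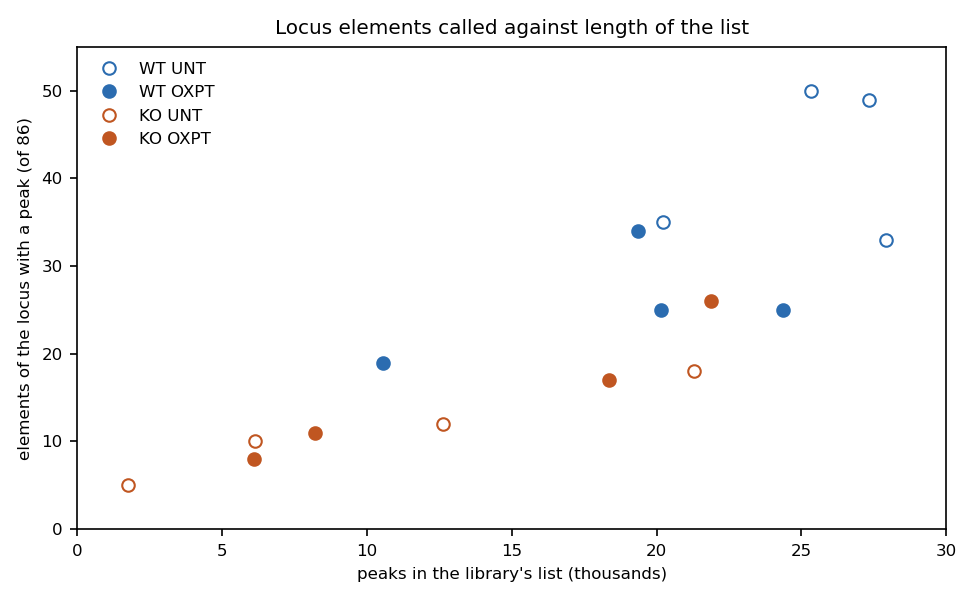
Peak elements called at the locus against the number of peaks in the library's whole list, 1 point per library (WT blue, KO orange, UNT open, OXPT filled). KO libraries, from 5 to 26 elements, include the 4 shortest lists, and WT libraries run from 19 to 50 elements.

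Group by group, elements called in both WT and neither KO library numbered 12 of 59 in esiCT UNT, where 23.0% of all regions switched in this way, and 2 of 40 (P41 and P70) in esiCT OXPT, against 2.21%. In esiHDAC4 UNT they were 8 of 61 against 8.58% (8 of 61 against 8.73% without KO esiHDAC4 UNT B), and in esiHDAC4 OXPT 6 of 41 against 6.17%. P41 was the element lost in all 4 settings. SEs were tested at S2, S3, S4 and S8, of which 0 of 4 passed an unadjusted p under 0.05 by the exact permutation test (7.71% of 778 SE regions did), S2 coming nearest at p = 0.0714. In esiHDAC4 OXPT cells S2, S3 and S4 were called in both WT and neither KO library, 3 of 6 where 7.91% of SE regions switched, and S3 there includes libraries on which the window was selected.

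The second comparison was OXPT against UNT, which the study used to follow the response to the drug. Over all 16 libraries 0 of 27 elements differed in presence (2.12% of all tested regions did) and 0 of 37 in fold (5.01%), at an unadjusted p under 0.05 by exact permutation. The fold count was 2 without KO esiHDAC4 UNT B, where 1883 of 22122 regions passed, and 2 without WT esiCT OXPT B, where 1117 of 21878 did. Among SEs, S8 (chr7:116799562-116811497), from the 3′ side of MET to the GENCODE start of CAPZA2, was called in 5 UNT and 0 OXPT libraries (exact p = 0.0306, adjusted p = 1), 1 of 4 tested where 0.514% of SE regions were called less often with OXPT. Its lengths were 10.0 kb in WT esiCT UNT B, 2.71 and 11.4 kb in WT esiHDAC4 UNT, 4.68 kb in KO esiCT UNT A and 4.34 kb in KO esiHDAC4 UNT A. The element below it, P80 (chr7:116799562-116806233), was called in 8 WT and 5 KO libraries. By drug these were 7 UNT and 6 OXPT libraries, with no call in KO esiCT OXPT B or KO esiHDAC4 OXPT B. Its median fold was 4.66 in UNT and 3.77 in OXPT (exact permutation p = 0.0788). The acetylated site was thus called in 6 OXPT libraries in which no SE was called over it.

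Comparing 2 libraries with 2 cannot give p below 0.5 within letters, and the following values are descriptions. In WT esiCT cells, 11 of 13 elements called in all 4 libraries had a lower fold with OXPT in both pairs, where 63.7% of the 4944 such regions did. As in the comparisons below, the median log2 change was taken over the regions called in all 4 libraries. It was -0.32 in A and -0.28 in B. Set against that median, 5 of 13 were lower in both pairs, P39, P44, P46, P59 and P70, where 28.2% of regions were. The start sites of CAV2, CAV1 and MET were the elements of this group with the lowest mean change. Relative to the same median, the log2 change was -0.58 and -0.55 at P44 of CAV2, -0.51 and -0.27 at P46 of CAV1, and -0.56 and -0.54 at P59 of MET. At P59 this corresponded to 34 (23.5 to 47.5) and 44 (32.0 to 59.1) summit fragments in UNT and 19 (11.4 to 29.7) and 17 (9.90 to 27.2) in OXPT, with 95% exact Poisson intervals. None of the 8 SE regions was lost in both WT esiCT pairs, where 20.2% of SE regions were.

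In KO esiCT cells the MET start had the opposite sign. P59 had a log2 change of 0.45 and 0.48 with OXPT, on 17 and 16 summit fragments in UNT and 25 and 20 in OXPT, whose intervals overlap. Relative to the median of the 1898 regions called in all 4 libraries, the change was 0.37 and 0.40. P45, P59, P63 and P66 were higher in both pairs, 4 of 9 where 34.7% of regions were. Relative to that median P45 and P59 were higher in both, 2 of 9 where 24.8% were, and P63, at 0.05 and 0.02, was lower at -0.02 and -0.06. Lower in both WT pairs and higher in both KO pairs were P59, P63 and P66, 3 of 8 elements called in all 8 esiCT libraries, where 25.6% of 1495 regions were. Relative to the median of each comparison P59 alone kept this pattern, 1 of 8, against 8.83% of regions. CAV1 and CAV2 start elements did not share it, as P46 had 0.25 and -0.12 and P44 0.03 and -0.31 in KO.

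**Figure D5:**
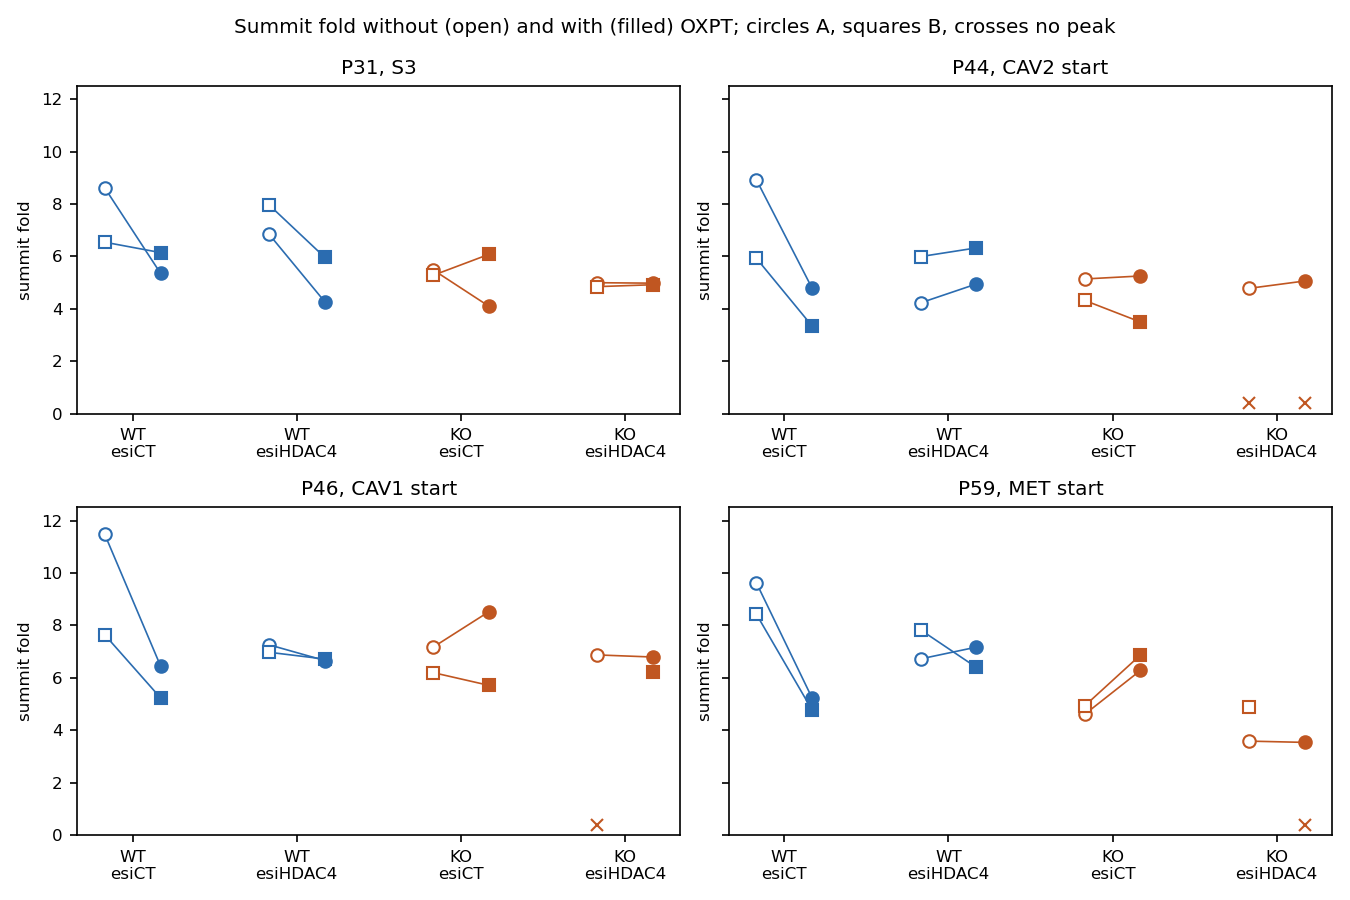
Summit fold at the start elements of CAV2 (P44), CAV1 (P46) and MET (P59) by group, with P31 of S3 beside them; open symbols are UNT, filled OXPT, circles library A, squares library B, and crosses at the bottom mark a library with no peak, not a value. In WT esiCT the OXPT values lie below the UNT values at all 3 starts, and in KO esiCT the OXPT values of MET, 6.28 and 6.87, lie above 4.60 and 4.93.

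When HDAC4 was silenced in WT cells, OXPT was accompanied by log2 changes of 0.23 and 0.08 at P44, -0.12 and -0.05 at P46 and 0.09 and -0.29 at P59. The median over the 6605 regions called in all 4 libraries was -0.15 and -0.17. S8 was lost in both pairs, 1 of 7 where 6.62% of SE regions were. In KO esiHDAC4 cells 4 elements were called in all 4 libraries, P31, P39, P63 and P78, and P63 was higher with OXPT in both pairs (0.19 and 0.38), 1 of 4 where 13.3% of regions were. P39 was lower in both (-0.04 and -0.17), 1 of 4 where 38.8% were. This comparison rests on KO esiHDAC4 UNT B, without which pair A alone remains.

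The third comparison, esiHDAC4 against esiCT, was tested in the 12 libraries other than KO OXPT. Presence differed in 0 of 24 elements, where 0.0297% of 16815 regions passed an unadjusted p under 0.05 by exact permutation, and SE presence in 0 of 4 regions, where 0% of 619 did. Fold was lower with esiHDAC4 at 1 of 35 elements, P80 (exact p = 0.040, smallest possible p 0.005), where 0.426% of regions passed, and its adjusted p did not. Its folds were 5.66, 4.20, 3.81 and 4.31 in WT esiCT, in the order UNT A, UNT B, OXPT A and OXPT B, and 4.79, 3.18, 3.52 and 3.73 in WT esiHDAC4. KO UNT had 5.25 and 4.66 in esiCT, and 3.95 and no call in esiHDAC4. Leaving out 1 library ended the call at P80 for 8 of the 12, KO esiHDAC4 UNT B among them.

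In untreated WT cells 10 of 19 elements were lower with esiHDAC4 in both pairs, where 42.2% of all such regions were. Relative to the median of the 10205 regions called in all 4 libraries, 8 of 19 were, against 25.3%. The largest mean log2 change was at P1, at the TES start, with -1.11 and -0.87. Both P46 and P59 were also lower, with 11.48 and 7.64 against 7.26 and 6.98 at CAV1, and 9.63 and 8.43 against 6.72 and 7.83 at MET. Relative to the median their changes were small in pair B, with -0.44 and -0.06 at P46 and -0.29 and -0.03 at P59. In OXPT-treated WT cells P59 had log2 changes of 0.46 and 0.43 with esiHDAC4, where the median over the 4214 regions called in all 4 libraries was -0.03 and 0.04. These changes share the WT esiCT OXPT libraries with the drug comparison above. S4, where the gained SEs ended upstream of the CAV1 start, was called in both esiHDAC4 and neither esiCT library, 1 of 6 where 6.32% of SE regions were gained.

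In KO OXPT cells, the setting on which the window was selected, S3 was the 1 of 4 SE regions called in both esiCT and neither esiHDAC4 library, where 10.2% of SE regions were lost. The esiCT SEs ran from 116417620 to 116427366 and from 116441495 to 116462566 in A, and from 116441516 to 116462530 in B, that is from P31 to P39. Both of these elements were still called after silencing. At P31 the fold was 4.10 and 6.07 in esiCT and 4.97 and 4.92 in esiHDAC4, and at P39 it was 6.0 and 5.21 against 4.91 and 5.30. The summed length of peaks in S3 was 8.24 and 3.77 kb in esiCT and 5.21 and 1.45 kb in esiHDAC4, with 6 and 3 elements called against 2 and 2. SE lists had 930 and 435 entries in esiCT and 400 and 187 in esiHDAC4, and the part of list length was not tested.

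Elsewhere in the same cells, 4 of 8 elements called in all 4 libraries had a lower fold with esiHDAC4 in both pairs, P14, P45, P66 and P78, where 47.6% of regions did. Relative to the median of the 2081 regions called in all 4 libraries, -0.22 in A and -0.11 in B, this left 2 of 8, where 25.7% of regions were. The MET SE S6 measured 36.4 and 22.9 kb in esiCT and 20.3 and 6.58 kb in esiHDAC4, and S7 9.85 and 7.38 kb against 8.36 and 0 kb. P59 had 6.28 and 6.87 in esiCT, and 3.54 and no call in esiHDAC4. P46 of CAV1, by contrast, had 8.52 and 5.71 against 6.79 and 6.23.

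Partner genes of caveolins and of MET were examined at their start sites. Of 9 caveola genes, 7 had a peak in at least 1 library and 6 in 8 or more. FLOT1, which encodes a flotillin of lipid rafts, had a peak in all 16, CAVIN1, encoding the principal caveolar coat protein, in 10, and CAVIN2 and CAVIN4 in none. Of the 5 that could be tested, 0 differed in presence in any of the 3 comparisons at an unadjusted p under 0.05 by exact permutation. Of 12 genes of MET signalling, 10 had a peak, and the ligand gene HGF and its activator gene HGFAC had none. SHC1, an adaptor, had a peak in all 16. Called less often in KO were 3 of 7 tested, where 14.4% of 9669 start sites of protein-coding genes were, and 3 of 7 against 15.9% without KO esiHDAC4 UNT B: SPINT1, an inhibitor of the proteases that activate the ligand, in 8 WT and 3 KO libraries (exact p = 0.0143), MST1R, the related receptor RON, in 8 and 4 (p = 0.0286), and CBL, the ubiquitin ligase of MET, in 7 and 1 (p = 0.0102). None differed with OXPT (0 of 7) or with esiHDAC4 (0 of 6). Shares of all coding starts with a peak, or differing in the drug and esiRNA comparisons, are not given here. The counts in both gene lists therefore describe these genes alone, apart from the KO comparison. COL1A1, the 1 called marker of other cell types, had a peak in 8 WT libraries and in 3 of KO (exact p = 0.0143) while the other 7 had no peak, and its part in the genotype results was not tested.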

How the data were processed

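H3K27ac ChIP-seq peaks and SEs of 16 libraries were used; 4 input samples were not. According to the labels and the study's methods, the authors used Trimmomatic 0.39 for trimming, Bowtie2 2.4.4 for alignment (hg38), SAMtools 1.18 for duplicate removal and MACS2 2.2.7.1 for peaks of each library, and stitched SEs within 12.5 kb. The study required H3K4me1 at SEs, and no source used here says if the deposited lists were already filtered for it. The deposited peak lists hold the fold enrichment (ratio) at the summit and the −log10 p-value and q-value of each peak, and a deposited score column was not used. Read totals were not given, so depth is unknown beyond the summit: the fragments there were solved from fold and −log10 p (whole within 0.01 in −log10 p for 98.5% to 100% of the peaks at the locus), and their intervals cover counting error only.

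Peaks and SEs were merged across libraries (1 bp overlap) over the whole genome. Presence (regions called in 3 to 13 of 16 libraries, or 3 to 9 of 12) and within-letter mid-ranks of the highest fold (3 or more) were compared with two-sided exact permutation tests within A and within B, 4900 arrangements for 16 libraries and 400 for 12, with Benjamini-Hochberg adjustment over all tested regions. The letter was kept because the study's own design had a replicate term. Named elements were SE regions, peaks called in 8 or more libraries, peaks within 1 kb of a coding start, and peaks with an unadjusted p under 0.05. The members, gene lists and tests were chosen with earlier results of these data known. Gene models were GENCODE 44 and RefSeq. Motifs were searched with Python 3.11.15 (numpy 2.4.6, scipy 1.17.1, pandas 2.3.3, matplotlib 3.10.9). The tests were checked on simulated data. The sequence of 1 further element is not reported here. Alternatives are given in the closing section.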

Additional observations from a re-analysis of the deposited data

Results flagged for a closer look

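Some elements moved one way with OXPT in both WT pairs and the other way in both KO pairs. These differences were not tested, since 2 pairs a genotype cannot give p below 0.5. In esiCT cells the KO change minus the WT change in log2 fold was 1.32 at P59 (MET start), 0.46 at P63 and 0.54 at P66 (MET introns). The median over the 1495 regions called in all 8 esiCT libraries was 0.45. With each change taken relative to the median of its own comparison, P59 differed by 0.94, P66 by 0.17 and P63 by 0.08. In esiHDAC4 cells the same difference was -0.21 at P39, upstream of CAV2, where WT changes were 0.20 and 0.00 and KO changes -0.04 and -0.17. Called SE length in esiCT cells gave 55.7 kb at S3, upstream of CAV2, with WT changes of -1.38 and -62.1 kb and KO changes of 30.8 and 17.2 kb. The KO esiCT OXPT calls at S3 are among those on which the window was selected. It gave 17.7 kb at S6, over MET, with WT changes of -3.55 and -15.5 kb and KO changes of 14.7 and 1.75 kb. The SE length at S3 in WT rested on library B, in which no SE was called with OXPT. With 2 libraries a group, no test for an outlying library was made.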

How the results depend on the processing

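None of the tested counts below changed direction. Without a test, P63 in KO esiCT, higher with OXPT in both pairs, was lower in both (-0.02 and -0.06) relative to the median of the regions called in all libraries compared. The 9 elements called less often in KO became 0 of 18 in untreated libraries alone (where 0.05 cannot be reached), 2 of 10 at a −log10 q of at least 10, 1 of 7 with lists of equal length, and 2 to 12 when a letter or a library was left out (5 without all A libraries, 2 without all B, 9 to 12 without any single library). The 14 elements lower in fold in KO became 0, 2 and 2 under the same settings, and 3 to 16 on leaving out (12 to 16 for single libraries). P41 had no peak left at the stricter q. Among these settings for KO, the share of all regions is given for lists of equal length only, in the section above. Differing in fold with OXPT were 0, and 1 with no replicate block, and 0 to 2 on leaving out. P80, lower with esiHDAC4, was lost (0) with all 16 libraries, at the stricter q and with equal lists, and the count was 0 to 1 on leaving out. SE regions differing in KO were 0, 2 (S3 and S6, exact permutation, adjusted p = 0.166 and 0.291) where an SE had to cover 50.0% of the region, against 69 of 651 regions, with S3 in part chosen by its KO calls, and 0 to 1 on leaving out (1 without WT esiCT UNT A, WT esiCT UNT B, WT esiCT OXPT A or WT esiHDAC4 UNT A). S8 was lost in WT libraries alone (0), and its count was 0 to 1 on leaving out, 0 without either letter. For peak presence with OXPT (0), peak presence with esiHDAC4 (0) and SE presence with esiHDAC4 (0), leaving out gave 0 to 0. Scaling to the median of the regions called in all libraries compared was an alternative chosen after seeing the data. It gave 5 for 11 elements lower with OXPT in WT esiCT, 1 for 3 of opposite sign and 2 for 4 lower with esiHDAC4 in KO OXPT.

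Whether the letters pair the libraries is not shown: over 28 pairs of groups, the A minus B differences in log2 fold of 472 shared regions correlated at -0.06 to 0.39 (median 0.05), 12 of them above 0.1. With no replicate block the counts were 9 (presence) and 14 (fold) for KO, and no call other than the 1 with OXPT changed.

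Summit counts of 10 to 46 fragments in the elements called in 8 or more libraries limit single folds, and the lists do not tell a missing call from acetylation under the threshold.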
